A study of Artemia franciscana with 14 samples.

Results

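Adult males and females of the brine shrimp *Artemia franciscana* differ in body form, and genes read strongly in 1 sex of the adult can be silent or already read in the embryo. The 300 genes described here had at least 30 CPM (the raw count of a gene per 1000000 counts of its library) in the adult male and at most 1 CPM in the adult female, and their CPM ranges at 4 dpf and 1–2 dpf (days post fertilization) overlapped. They were taken as the highest in the adult male among 430 genes that met these conditions, of 19421 genes in the count table. Genes with numbers from jg8898 to jg9983 were left out. The members were thus chosen by the adult male and adult female levels and by the overlap of the stages, so the adult levels and the stages are given below as a description, without a test. The sex of the embryos was not used to choose them, although the overlap of the stages used the values of the same embryos. A member can thus have met the overlap through embryos of 1 sex. All genes, given beside the members in the tests below, did not have to meet that condition.

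The study sequenced mRNA from single wild-type embryos and from adults to compare the sexes of a species in which females are ZW and males ZZ. The embryos comprised 3 males and 3 females at 4 dpf, and 3 males and 3 females at 1–2 dpf, of which 1 male and 1 female were labelled 1 dpf and the others 2 dpf. There was 1 adult male and 1 adult female library. Embryo sex was as the authors assigned it, from variants in expressed genes of the Z chromosome. Embryos of these females develop inside the mother, and whether the embryos shared a mother is not given in the sources used here, so that p-values measure only the spread between these embryos. By the study's methods the germline was taken out of adults by dissection before RNA isolation, so the adult libraries stand for the rest of the body. How completely it was removed was not tested. The adults were of unspecified age, with 1 library each, so that sex, individual and library cannot be told apart in them.

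*Artemia* males carry enlarged second antennae with which they clasp the female, a difference between the sexes outside the gonad. In *Drosophila*, tissues other than the germline also read genes in males alone, such as those for seminal fluid proteins in the accessory glands. The identifiers of the members are jg gene model numbers that carry no names, so no function is given for any of them, and the adult libraries could not be checked against markers of any tissue, the removed germline included. Gene lengths were not used here, so a CPM orders genes by their share of reads and not by transcripts per cell. In bulk samples such as these, fewer cells of a type and less RNA per cell cannot be told apart.

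Library totals were between 2669131 and 7463397 counts in the embryos, 1840926 in the adult male and 3342959 in the adult female. A level of 3 reads, taken as the floor, corresponded to between 0.402 and 1.12 CPM in the embryos, 1.63 CPM in the adult male and 0.897 CPM in the adult female. It covers counting error only. The female replicate 12 at 1–2 dpf stood apart, with reads in 6414 genes, against 9481 to 11352 genes in the other 11 embryos. Some results that rest on it are also given without it, and the others include it. The adult libraries were also below those 11 embryos, with reads in 7064 genes in the adult male and 7399 in the adult female. By the study's methods, adult RNA was brought to a fixed amount before cDNA was made, while the amount of embryo RNA was unknown. What part this input and the fewer genes read had in the absence of the members from the adult female was not tested.

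Of 3307 genes at 30 CPM or more in the adult male, 481 had at most 1 CPM in the adult female, which is 14.5%. The opposite condition, at least 30 CPM in the adult female and at most 1 CPM in the adult male, held for 339 genes, or 12% of the genes that high in the adult female. Between 2 embryos of the same sex and stage, the same pair of thresholds took a median of 21.5 genes over 24 ordered pairs. The 20 pairs without the female replicate 12 took 8 to 44 genes, and the 2 pairs in which the genes were absent from replicate 12 took 108 and 329. Of the 481 genes, 19 were in the numbers left out, 27 were wholly higher and 5 wholly lower at 4 dpf than at 1–2 dpf, and the rest are the 430.

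The adult female library held no read of 253 of the 300 members, 1 read of 26, 2 reads of 16 and 3 reads of 5. The highest adult female value among the members was 0.897 CPM. Just outside, jg3732 had 61.4 CPM in the adult male and 1.20 CPM, or 4 reads, in the adult female. At the lower end of the list, 10 genes tied at 40.2 CPM, or 74 reads, in the adult male, of which 6 were kept by their order in the table, with jg6155 the last, and 4 were left out, with jg4860 the first. The 130 genes past the 300 reached down to 30.4 CPM (jg4052, 56 reads), and the highest gene under the limit, jg20265, had 29.9 CPM. Of the members, 208 were under 100 CPM in the adult male, 62 were between 100 and 300 CPM and 30 were at 300 CPM or more, with a median of 68.2 CPM.

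A few genes carried much of the signal in the adult male. The 300 members summed to 74790 CPM, or 7.48% of all counts in the adult male, and to 21.8 CPM in the adult female, and the 5 highest made up 45.2% of the adult male sum. The gene jg14204 had 33689 reads, or 18300 CPM, in the adult male, and no read in the adult female or in any of the 12 embryos. Against the floor of 3 reads in the adult female library, this was at least 20392-fold higher in the adult male. A single gene model with no read outside the adult male thus took the largest share of the list.

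The second member, jg20950, had 4936 CPM in the adult male and no read in the adult female. In males at 4 dpf it had 27.5, 2.44 and 8.24 CPM, and in females at 4 dpf 10.2, 11.3 and 11.98 CPM. In males at 1–2 dpf it had 4.30, 5.84 and 4.77 CPM, and in females at 1–2 dpf 7.52, 5.003 and 0 CPM. It was thus read at a low level in 11 of 12 embryos of both sexes, with overlapping groups. The third, jg8208, had 4053 CPM in the adult male and 3 reads in the adult female, and was at 0.467 CPM in 1 male at 1–2 dpf and at 0 in the other embryos. The next in order, jg14905 and jg14205, had 3273 and 3240 CPM in the adult male and no read in the adult female, and were at most at 7.12 and 2.995 CPM in any embryo. Of the 11 members at 1000 CPM or more in the adult male, 9 stayed below 30 CPM in every embryo and 5 of these below 5 CPM. The exceptions, singled out after their values were seen, were jg7752 with up to 156.6 CPM and jg16510 with up to 39.4 CPM in an embryo.

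**Figure D1:**
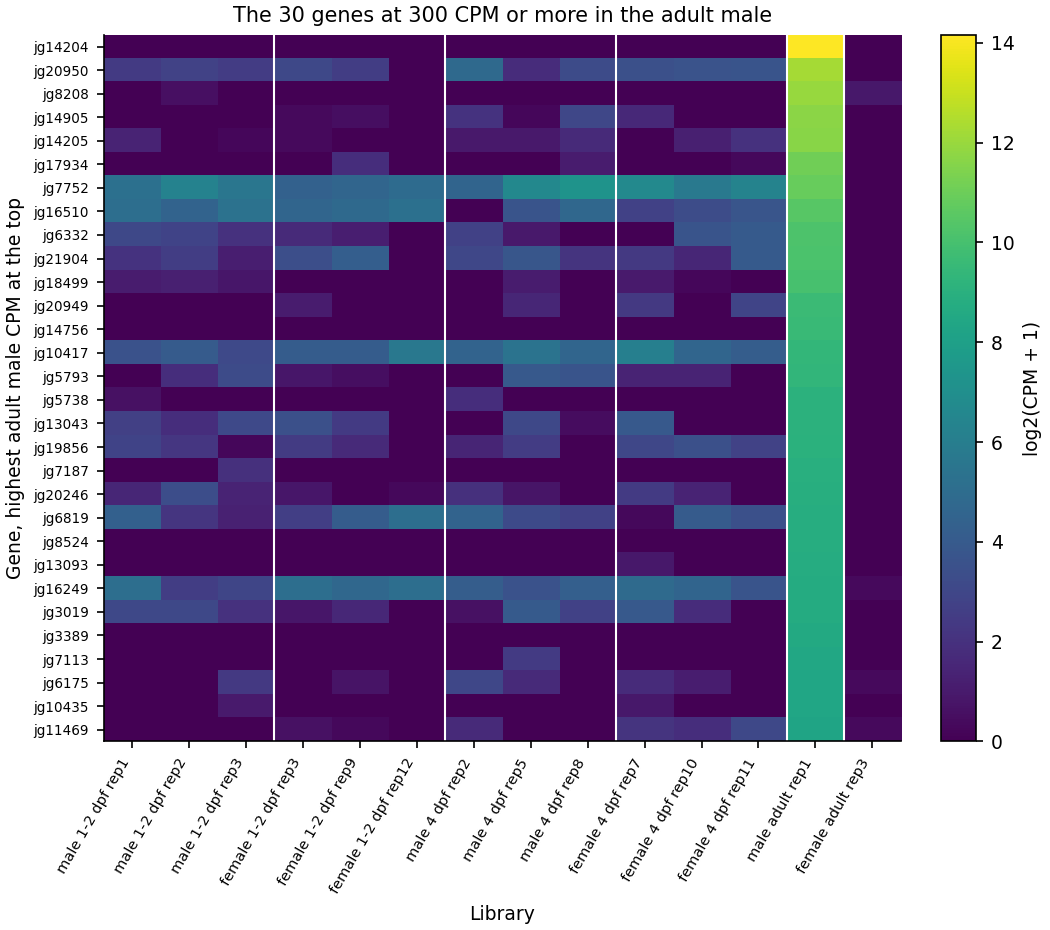
Level of the 30 members at 300 CPM or more in the adult male, as log2(CPM + 1) by colour, in each of the 14 libraries (columns, grouped by stage and sex). The adult male column is bright throughout by the choice of the genes, while jg14204 in the top row has no read elsewhere and jg7752 is read in all 12 embryos.

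Most of the 300 genes were not confined to the adult male library, since most were read in embryos of either sex. Only 11 members (3.67%) had no read in any of the 12 embryos, 63 had reads in 1 to 5 embryos, 112 in 6 to 11 and 114 (38%) in all 12. Without the female replicate 12 at 1–2 dpf, 148 members (49.3%) had a read in every embryo. The mean over the 12 embryos was 10 CPM or more for 150 members, between 1 and 10 CPM for 83 and under 1 CPM for 67. For 46 members the mean over the embryos was above the adult male level, and for 13 every single embryo was.

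The 11 members without a read in the embryos were jg14204, jg14756, jg8524, jg3389, jg17159, jg14733, jg12798, jg22198, jg17933, jg14221 and jg1731, in falling order of the adult male level, which was 777 CPM in jg14756 and 47.3 CPM in jg1731. All but jg17933, which had 1 read, were also without a read in the adult female.

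The members read in every embryo included genes far above their adult level. The gene jg497 had 356, 297 and 429 CPM in males and 204, 417 and 465 CPM in females at 4 dpf. At 1–2 dpf it had 418, 544 and 389 CPM in males and 896, 370 and 396 CPM in females, against 56.0 CPM in the adult male and 0.299 CPM, or 1 read, in the adult female. It had the highest mean over the embryos, 432 CPM, and the groups overlapped. The other members with the highest values in their lowest embryo were jg10427 with 131 to 282 CPM over the embryos and 44.5 CPM in the adult male, jg15010 with 124 to 352 CPM and 194 CPM, jg1200 with 122 to 402 CPM and 91.3 CPM, and jg12247 with 120 to 251 CPM and 77.1 CPM. All 4 were at or below 0.897 CPM in the adult female. These genes were thus read in embryos of both sexes and in the adult male, and nearly absent from the adult female library alone.

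**Figure D2:**
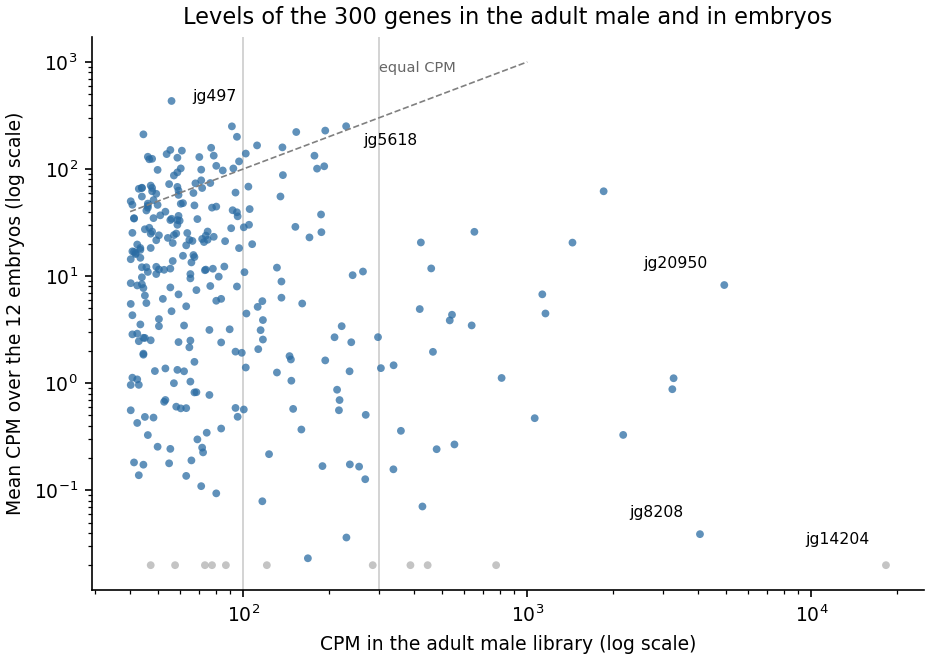
Each point is 1 of the 300 members, with its CPM in the adult male on the x axis and its mean CPM over the 12 embryos on the y axis, both on log scales. Grey points at the bottom have the lowest means and include the 11 members with no read in any embryo. Vertical lines mark 100 and 300 CPM, and 46 members lie above the dashed line of equal CPM.

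Members with a higher level in the adult male were read less in the embryos. With classes set after the values were seen, 97 of 208 members under 100 CPM in the adult male (46.6%) had a read in all 12 embryos, against 13 of 62 between 100 and 300 CPM (21.0%) and 4 of 30 at 300 CPM or more (13.3%). The median of the embryo means was 14.9 CPM in the lowest class, 3.65 CPM in the middle and 1.25 CPM in the highest. Without the female replicate 12 the shares were 57.7%, 35.5% and 20%, and with the embryos thinned to the smallest total they were 44.7%, 21.0% and 13.3%.

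The same order held among the 303 genes of the mirrored list, which had at least 30 CPM in the adult female and at most 1 CPM in the adult male, with the same conditions on numbers and stages but without keeping the highest 300. There the shares were 55.1% of 216 genes, 20.6% of 34 and 0% of 53, so that none of the 53 highest had a read in all 12 embryos. For the lowest class the like value, over all 430 genes without keeping the highest 300, is 51.5% of 338. Among the 2659 genes at 30 CPM or more in the adult male and above 1 CPM in the adult female, with the same numbers left out but no condition on the stages, they were 68.4%, 71.3% and 62.8%, and 11 genes (0.414%) had no read in any embryo. The lists were chosen on the adults and differ in level, and their difference was not tested.

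**Figure D3:**
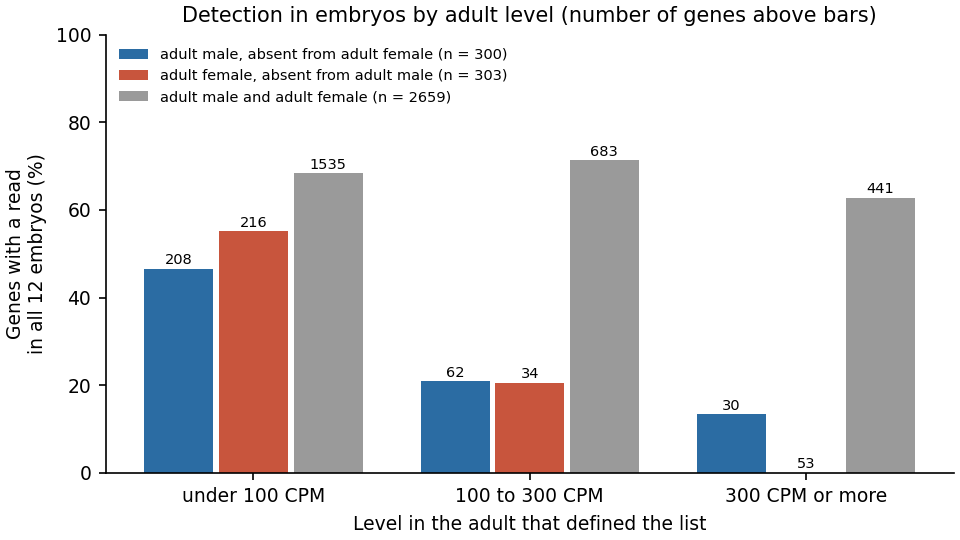
Percentage of genes with a read in all 12 embryos (y axis), by the CPM class in the adult that defined the list (x axis), for the 300 members, the 303 genes of the mirrored list and the 2659 genes read in both adults. Numbers above bars are genes, and the percentage falls with the adult level in the first 2 lists, to 13.3% and 0%, while it is 62.8% in the third.

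The members were read to about the same extent in male and female embryos at 4 dpf. At 1 CPM or more there were 211, 222 and 197 members in males and 214, 213 and 187 in females at 4 dpf, which is 210 ± 12.53 and 204.7 ± 15.3 (SD, n = 3 each). Their summed level was 9273, 9560 and 9597 CPM in males and 9278, 9469 and 9560 CPM in females at 4 dpf, or 9477 ± 177 and 9436 ± 144 CPM (SD, n = 3 each). The sexes overlapped in both measures, with means that differed by less than the spread between embryos.

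At 1–2 dpf, 199, 208 and 217 members in males and 205, 206 and 129 in females were at 1 CPM or more, or 208 ± 9.0 and 180 ± 44.2 (SD, n = 3 each). The value of 129 belonged to the female replicate 12, the library with fewest genes read, and without it the female mean was 205.5. The summed level was 10442, 8872 and 8397 CPM in males and 10314, 7443 and 7206 CPM in females at 1–2 dpf, or 9237 ± 1070 and 8321 ± 1730 CPM (SD, n = 3 each). With CPM from the column totals, the highest sum in each sex was that of the embryo labelled 1 dpf, and the sexes overlapped. The 2 lowest sums of all embryos were those of female replicates 9 and 12. This order depended on the scaling. TMM scaling, which divides by a further factor per library, had a factor of 1.16 in male replicate 1 and 0.793 in female replicate 9. It thus lowers the first sum and raises the second. The coefficient of variation over the 12 embryos ranged between 0.177 and 1.501, with a median of 0.471, among the 114 members with a read in all of them. The median was 0.465 among all 5175 genes with a read in all 12, which did not have to overlap between the stages. What the required overlap did to this spread was not tested.

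**Figure D4:**
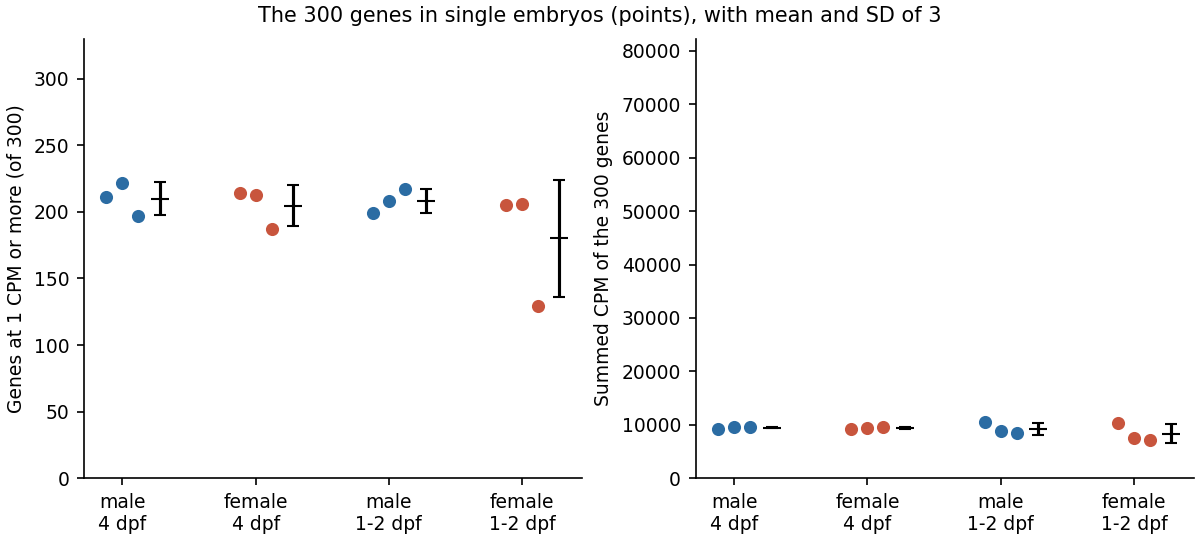
Number of members at 1 CPM or more (left) and summed CPM of the 300 members (right) in each embryo (points), with the mean and SD of 3 embryos beside them, for males and females at 4 dpf and at 1–2 dpf. On the left the female replicate 12 at 1–2 dpf lies below all other embryos with 129 members, and on the right 2 females at 1–2 dpf, with 7443 and 7206 CPM, lie below the rest.

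By stage, 165 of the 289 members with a read had a higher mean at 4 dpf than at 1–2 dpf and 124 a lower one. With the mean of the higher stage at 10 CPM or more, 15 were at least 3-fold higher and 5 at least 3-fold lower at 4 dpf. Since members were required to overlap between the stages, these counts are no measure of how often such genes change.

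At 4 dpf, no member was called between male and female embryos. Of 205 members with enough reads, 0 passed an adjusted p of 0.05 (edgeR quasi-likelihood F test, Benjamini-Hochberg over 8979 genes), as did 0% of all genes tested. DESeq2 called 0 members and 0.309% of all genes it tested. At an unadjusted p under 0.05, 1 member was higher and 7 were lower in males, or 0.488% and 3.41%, against 1.65% and 1.88% of all genes. Among the members tested, male and female values did not overlap in 7 with males higher (3.41%) and in 14 with males lower (6.83%), against 6.48% and 4.41% of all genes tested. The median log2 fold change of males over females was -0.0057 among the members and 0.012 among all genes.

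The members with the smallest p-values were the following, none of which passed the test. The gene jg17021 had 3.35, 7.69 and 5.62 CPM in males and 21.6, 24.5 and 22.0 CPM in females at 4 dpf, a log2 fold change of -2.11 ± 0.57 (SE, adjusted p = 0.999 in edgeR). For jg8510 the values were 9.38, 21.6 and 15.0 CPM in males and 43.9, 56.1 and 30.2 CPM in females at 4 dpf (-1.58 ± 0.46, SE). Both sets of values were lower in every male than in every female. The gene jg12060 was at 157, 135 and 146 CPM in males and 55.7, 96.7 and 70.4 CPM in females at 4 dpf (0.92 ± 0.30, SE), again without overlap. The next gene in this direction, jg11140, had overlapping values, with 14.5, 8.62 and 42.3 CPM in males and 5.93, 8.99 and 1.71 CPM in females at 4 dpf. The adjusted p of these genes ranged from 0.140 to 1.00 over the alternatives, so none was called under any of them.

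At 1–2 dpf, 0 of 186 members tested passed in edgeR, as did 0% of all 8089 genes. DESeq2 called 2 of the 177 members it tested (1.13%) and 0.725% of all genes it tested. The 2 members were jg5618 and jg7061, both higher in males. At an unadjusted p under 0.05 in edgeR, 2 members were higher and 3 lower in males, or 1.08% and 1.61%, against 2.68% and 3.37% of all genes. Among the members tested, the sexes did not overlap in 16 with males higher (8.60%) and 7 with males lower (3.76%), against 10.5% and 6.01% of all genes tested. The median log2 fold change was 0.24 among the members and 0.14 among all genes.

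The gene jg5618 had 92.7, 577 and 526 CPM in males and 10.9, 13.7 and 12.02 CPM in females at 1–2 dpf. Every male was above every female, and the lowest male, replicate 1, was the one labelled 1 dpf, as was the lowest female, replicate 3. The log2 fold change was 4.98 ± 0.79 (SE), with an adjusted p of 0.510 in edgeR and of 4.13e-09 in DESeq2. Over the alternatives the log2 fold change was between 4.58 and 5.46 and the adjusted p between 4.13e-09 and 1.00. The call thus turned on the method: it was also made in edgeR without a filter on low counts (adjusted p = 0.00634) and without male replicate 1 (0.00969), and it was not made with the day of collection in the model (4.58, adjusted p = 0.510) or without the female replicate 12 (4.91, adjusted p = 0.728).

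At 4 dpf the same gene had 288, 368 and 324 CPM in males and 290, 245 and 264 CPM in females, so the groups overlapped. In the adults it was at 230 CPM in the male and at 0.299 CPM, or 1 read, in the female. The adult values were fixed by the choice of the members. Among the embryos, the 3 females at 1–2 dpf had the lowest values of jg5618. Of the embryos at 1–2 dpf, only male replicates 2 and 3 reached its values at 4 dpf. The gene thus met the required overlap of the stages through these males. Its sex difference at 1–2 dpf, and the change of that difference between stages, are therefore not independent of the choice of members.

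The gene jg7061 had 131, 170 and 110 CPM in males and 57.1, 25.5 and 19.9 CPM in females at 1–2 dpf, a log2 fold change of 1.95 ± 0.47 (SE), with an adjusted p of 0.782 in edgeR and 0.0251 in DESeq2. At 4 dpf the order was turned round, with 59.2, 51.6 and 38.2 CPM in males and 85.4, 72.9 and 61.0 CPM in females. The sexes did not overlap at either stage. In the adults it had 67.9 CPM in the male and no read in the female.

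In the other direction, jg1200 had 249, 223 and 203 CPM in males and 321, 348 and 402 CPM in females at 1–2 dpf (-0.78 ± 0.28, SE), without overlap. The gene jg17381 had 169, 78.3 and 81.9 CPM in males and 158, 179 and 287 CPM in females at 1–2 dpf (-1.07 ± 0.39, SE), with overlap. Both had an adjusted p of 0.782 in edgeR.

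**Figure D5:**
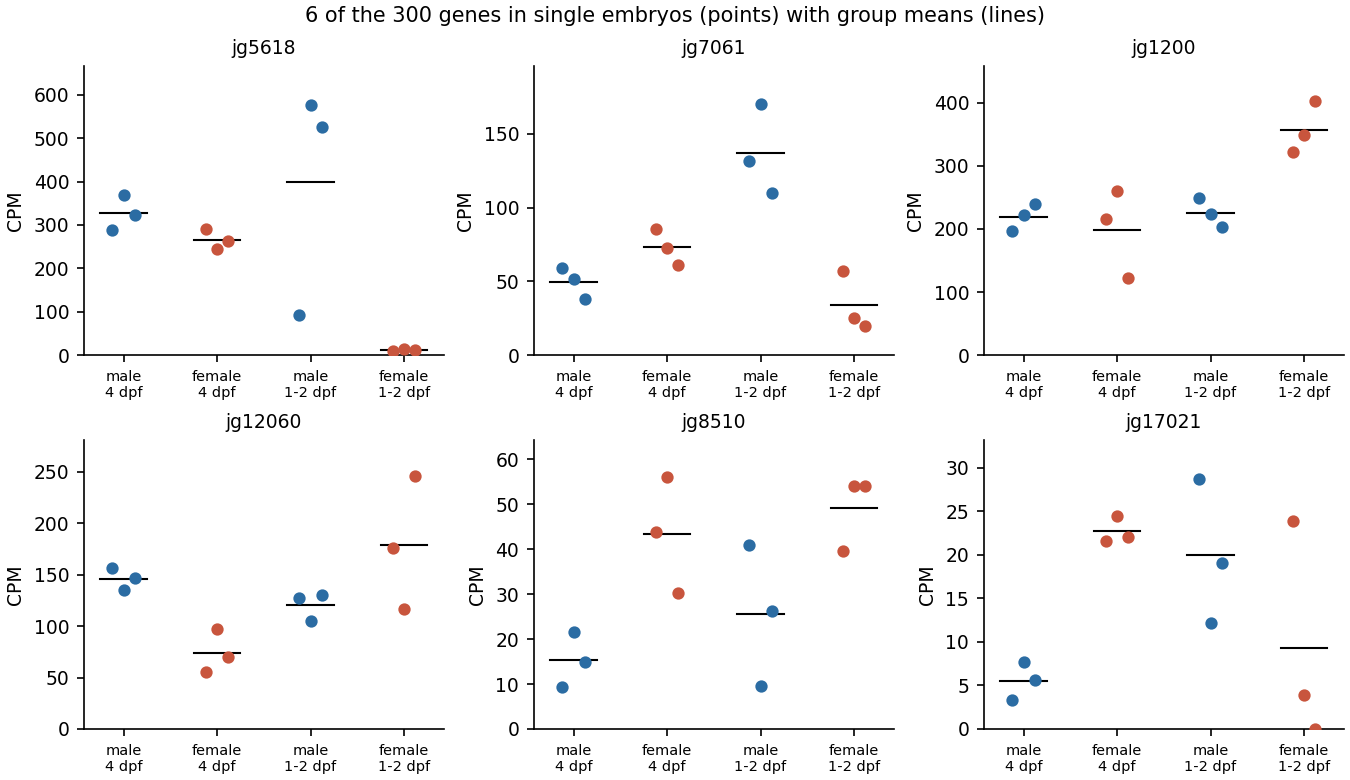
CPM (y axis, from 0) of 6 members in each embryo (points), with the mean of 3 embryos as a line, for males and females at 4 dpf and at 1–2 dpf. For jg5618 the 3 females at 1–2 dpf lie at 10.9 to 13.7 CPM, below all other embryos, and jg7061 and jg12060 have the higher sex exchanged between the stages by their means.

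Over both stages together, 0 of 208 members tested passed in edgeR, against 0.0215% of all 9290 genes, and DESeq2 called 0 members and 0.152% of all genes. At an unadjusted p under 0.05, 2 members were higher and 5 lower in males, or 0.962% and 2.40%, against 2.43% and 2.77% of all genes. In no member were all 6 males above or all 6 females above the other sex, which held for 0.194% of all genes with males higher and 0.151% with males lower. The median log2 fold change was 0.12 among the members and 0.11 among all genes. The members with the smallest p-values were jg5618 (2.58 ± 0.93, SE) and jg11411 (0.65 ± 0.28, SE), higher in males, and jg8510 (-1.33 ± 0.39, SE) and jg17381 (-0.74 ± 0.25, SE), lower in males, each with an adjusted p of 0.901 in edgeR.

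Whether the sex difference itself differed between the stages was tested as the log2 fold change at 4 dpf minus that at 1–2 dpf. In edgeR 0 of 221 members passed, as did 0% of all 9833 genes. DESeq2 called 2 of the 131 members it tested (1.53%) and 0.535% of all genes it tested. The 2 members were again jg5618 and jg7061, both with a lower value at 4 dpf. At an unadjusted p under 0.05 in edgeR, 8 members had a higher and 5 a lower fold change at 4 dpf, or 3.62% and 2.26%, against 2.35% and 3.17% of all genes. Members had to overlap between the stages in these same embryos and all genes did not, so the shares do not compare like genes. The median of this difference was -0.23 among the members and -0.17 among all genes.

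For jg5618 the difference was -4.76 ± 0.78 (SE) with an adjusted p of 0.0932 in edgeR, the smallest of the members, and 3.71e-06 in DESeq2, and over the alternatives the adjusted p was between 3.71e-06 and 0.406. In edgeR it passed without a filter on low counts (0.00142) and without male replicate 1 at 1–2 dpf (0.000147). The gene met the overlap of the stages only through male replicates 2 and 3 at 1–2 dpf, so its difference is not independent of the choice of members. For jg7061 it was -2.55 ± 0.59 (SE), with an adjusted p of 0.780 in edgeR and 0.00945 in DESeq2. For jg12060 it was 1.53 ± 0.46 (SE, adjusted p = 0.837 in edgeR), with 127, 105 and 130 CPM in males and 176, 116 and 246 CPM in females at 1–2 dpf. The gene jg11202 had no read in the 3 males at 1–2 dpf, so that its fitted value depends on the prior count and is not given. Its values were 25.7, 5.81 and 8.62 CPM in males and 2.54, 6.83 and 0.214 CPM in females at 4 dpf, and 1.67, 11.3 and 0 CPM in females at 1–2 dpf.

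Some members reached 1 CPM in a single embryo only. At 1 CPM or more in exactly 1 of 12 embryos there were 23 members, of which 1 reached 10 CPM. This was jg2032, with 11.6 CPM, or 31 reads, in the male replicate 8 at 4 dpf and at most 0.375 CPM in the other embryos. The next was jg6820, with 7.52 CPM, or 28 reads, in the male replicate 1 at 1–2 dpf and at most 0.835 CPM elsewhere.

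Members also lay next to each other. By their jg numbers, 30 members (10%) formed 15 pairs of consecutive numbers, all next to each other in the table and none longer than 2. In the mirrored list, which was not cut to its highest genes, 40 of 303 genes (13.2%) lay in 16 runs of up to 6. Of all 430 genes that met the rule, 45 (10.5%) lay in 21 runs of up to 3. Of the 5 highest members, jg14204 and jg14205 formed such a pair, and jg20950 formed one with jg20949 (812 CPM in the adult male). Beside jg14905, also among these 5, jg14904 had 743 CPM in the adult male and 0 CPM in the adult female, but was not a member. Runs of members can thus be cut short by the conditions on the list. Neighbours could differ in the embryos. The pair jg8336 and jg8337, singled out after its values were seen, had 65.2 and 60.8 CPM in the adult male, and in the embryos jg8336 had 0 to 13.8 CPM while jg8337 had 44.8 to 277 CPM. Whether neighbours share sequence, so that reads could be split between them, was not tested.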

How the data were processed

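The authors deposited raw counts per gene for 14 libraries of an mRNA kit with UMIs (12 single embryos, and 2 adults whose germline was removed by dissection), made with the Cogent pipeline from all reads, not collapsed by UMI. Columns were assigned to samples by barcode. The members and lists were chosen with earlier results of these data known. CPM used the column totals. Sexes were compared in R 4.3.3 with edgeR 4.0.16 (filterByExpr, TMM, quasi-likelihood F test, Benjamini-Hochberg over all genes tested, threshold 0.05), as males over females. Each SE was derived from F, as the size of the log2 fold change over its square root. The model over both stages had a term for stage. DESeq2 1.42.0, other scaling, no filter, a term for the day and leaving out each embryo were the alternatives. The counts of members read in every embryo under leaving out and thinning, and all results over the 430 genes, were added after the data had been seen. The fit was tested on simulated data.

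Named genes are the 5 highest in the adult male, the 2 members with the smallest p-value in each direction of each test, those highest in the lowest embryo or in mean over the embryos, those at the limits of the rule, and the 2 highest of those that reached 1 CPM in a single embryo. None of the 18 genes that the paper gives by a jg number is a member, and the longest runs of neighbours were 15 pairs, of which few are named.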

Additional observations from a re-analysis of the deposited data

Results flagged for a closer look

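The female replicate 12 at 1–2 dpf lay far from the other 5 embryos of its stage in 2 of the 4 measures examined at that stage. It had a read in 137 members and 129 members at 1 CPM or more, against 199 to 217 members at 1 CPM or more in the other embryos at 1–2 dpf. Its number of members at 10 CPM or more and its summed CPM did not stand apart by the same criterion. By chance about 1 in 20 groups of samples shows such a gap in a single measure, and these 2 measures are not independent. The gap was not particular to the members. Replicate 12 also had the fewest genes at 1 CPM or more of the mirrored list (136 of 303) and of the genes read in both adults (1884 of 2659).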

How the results depend on the processing

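No paired analysis was possible because the labels give no pairing of the embryos. No named gene changed direction under any alternative. With an adult male minimum of 50 CPM, 222 genes met the rule instead of 430, and the other rules gave 363 to 644. Scaled by TMM over the 14 libraries, 459 genes met it, including 293 of the 300 members. Leaving out 1 embryo gave 114 to 148 members with a read in every embryo, and all 430 genes gave 191. By the same step, the mean number at 1 CPM or more was 204 to 216.5 in males and 200 to 213.5 in females at 4 dpf, and 203.5 to 212.5 in males and 167 to 205.5 in females at 1–2 dpf. The summed level in males at 4 dpf was 9077 CPM with TMM scaling over the embryos, against 9477 CPM without.

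Among all genes, edgeR called 0 between the sexes at 4 dpf, 0 at 1–2 dpf, 2 over both stages and 0 for the difference between stages, against 26, 56, 14 and 29 in DESeq2. Without a filter on low counts, edgeR called 4 genes at 4 dpf, 12 at 1–2 dpf and 6 for the difference between stages, and RLE scaling gave 2 for the last. Among the members, DESeq2 called 2 and the fit without a filter called 1, both at 1–2 dpf and for the difference between stages. Leaving out 1 embryo gave 0 to 3 genes at 4 dpf, 0 to 12 at 1–2 dpf, 0 to 4 over both stages and 0 to 22 for the difference, and 0 to 1 member at 1–2 dpf and for the difference, the 1 being jg5618 without male replicate 1 at 1–2 dpf. The cause was not tested. With 3 embryos per sex and stage and 1 adult per sex, 79 to 114 members had too few reads to be tested, and their sex difference was not detectable at this depth.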
